A study of Rattus norvegicus with 6 samples.

Results

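The miR-15/16 seed family is described here through 8 mature miRNAs, taken by name from the deposited table of 493. They are the 5p arms rno-miR-15b-5p, rno-miR-16-5p, rno-miR-195-5p, rno-miR-497-5p, rno-miR-322-5p and rno-miR-503-5p and the 3p arms rno-miR-195-3p and rno-miR-322-3p, written without the prefix rno from here on. All 8 were in the table, and all 8 were among the 452 miRNAs that passed the filter on low counts. Small RNA came from the peri-infarct cortex of male Sprague-Dawley rats, 3 with MCAO and 3 with MCAO + rTMS, with 1 library for each rat. In all 6 rats the right middle cerebral artery was occluded for 90 min (MCAO, middle cerebral artery occlusion) and reperfused. The MCAO + rTMS rats, called the stimulated rats here, then received repetitive transcranial magnetic stimulation, in which a coil above the head gives magnetic pulses. By the labels it was given at 10 Hz for 10 min a day on 7 days. By the study's methods the pulses came in short trains with rests between them, starting the day after reperfusion. Tissue was taken at 7 days after the stroke, by the labels for the MCAO rats. For both groups this day is in the heading of the study's supplementary list of changed miRNAs. The labels give no tissue day for the stimulated rats and name no sham stimulation. The rat ages are not given, and a rat without stroke was not part of this comparison.

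A miRNA guides the Argonaute protein to mRNAs that pair with its seed, bases 2 to 8 counted from the 5′ end, and lowers their output. The members of this family repress D and E cyclins, the checkpoint kinase CHEK1 and the survival factor BCL2, and they are known for slowing the cell cycle and favouring apoptosis. Each hairpin precursor gives a 5p and a 3p arm, and usually one of them is kept while the other is degraded. The hairpins lie in clusters that are transcribed together. By RefSeq gene positions (assembly GRCr8), Mir15b and Mir16 are neighbours inside Smc4, Mir497 and Mir195 are neighbours, and Mir322 and Mir503 are neighbours on a line that goes on with Mir351, Mir542 and Mir450. The submitters' processing notes name another build, rn6, so coordinates are not given.

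The mature sequences are shown because the members are grouped by their seeds in what follows. They are the RefSeq sequences of GRCr8, written 5′ to 3′ with the seed in capitals.
miR-16-5p: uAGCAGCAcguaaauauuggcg
miR-195-5p: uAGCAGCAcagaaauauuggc
miR-15b-5p: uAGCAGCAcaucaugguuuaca
miR-497-5p: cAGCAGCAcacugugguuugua
miR-322-5p: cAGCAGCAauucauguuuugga
miR-503-5p: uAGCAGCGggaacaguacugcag
miR-195-3p: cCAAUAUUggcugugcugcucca
miR-322-3p: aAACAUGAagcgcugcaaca
The first 5 share the seed AGCAGCA, and no other mature rat miRNA of the RefSeq table used has it (miR-15a-5p has no entry there). The seed of miR-503-5p is AGCAGCG, which differs from AGCAGCA in its last base only. The 3p arms have unrelated seeds, and they belong to the family through their hairpins only. Pairs of the 5p arms have 10 to 16 identical positions of the 21 or 22 compared, seed included. The exception is the pair of miR-16-5p and miR-195-5p, which share 19 of 21 positions and differ by G10A and U11G (base of miR-16-5p first, numbered from 1 at the 5′ end). They come from different clusters. How reads that match both would be counted is not given in the sources used here.

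Total counts lay between 10492610 and 13111127 in the MCAO rats and between 13722761 and 15411620 in the stimulated rats. The unit of level used here is CPM, in which each count is divided by the library total scaled by edgeR's TMM factors and brought to 1e6 reads. These factors lay between 1.16 and 1.39 in the MCAO rats and between 0.695 and 0.864 in the stimulated rats. The lowest factor was that of MCAO + rTMS replicate 3. Differences were tested in edgeR (quasi-likelihood F-test), and p-values were adjusted by Benjamini-Hochberg over all 452 miRNAs. By this 55.3% of all miRNAs had an adjusted p under 0.05, 28.1% lower and 27.2% higher in the stimulated rats, and the median log2 fold change was -0.21. No cultures or litters are named. With 1 library for each rat, the p-values measure the spread between these 6 rats and between their libraries together. Neither the total counts nor the factors overlapped between the groups, and the part of library handling in the fold changes was not tested.

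The 5 members with the seed AGCAGCA were all lower in the stimulated rats (adjusted p under 0.05, edgeR). The member with another seed on the 5p arm, miR-503-5p, was not called in either direction, while both 3p arms were higher. Thus 7 of 8 members were called, 5 lower and 2 higher, beside 55.3% of all miRNAs, 28.1% lower and 27.2% higher. With library totals only, 5 of 8 members were called, beside 58.2% of all miRNAs, 46.0% lower and 12.2% higher. With upper-quartile factors 5 of 8 were called too, beside 56.9% of all miRNAs, 38.1% lower and 18.8% higher. In both the 5 members with the shared seed stayed lower while neither 3p arm was called. The median log2 fold change over the 8 was -1.29, and over the 5 with the shared seed it was -1.60.

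miR-16-5p, the most abundant member in the MCAO rats and also a major miRNA of red blood cells, was at 208, 192 and 160.0 CPM in MCAO replicates 1, 2 and 3 and at 79.2, 62.7 and 48.5 CPM in MCAO + rTMS replicates 1, 2 and 3. Every stimulated rat lay below every rat of the MCAO group, a pattern that 36.1% of all tested miRNAs had. Its log2 fold change was -1.55 ± 0.23 (SE, adjusted p = 0.0017, edgeR), a 2.94-fold lower level. Among the tested miRNAs it moved from rank 122 to rank 179 by mean CPM.

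miR-195-5p, which shares its cluster with miR-497-5p and is known for taking heart muscle cells out of the cell cycle, was at 62.1, 56.7 and 41.1 CPM in the MCAO rats against 19.1, 12.6 and 21.0 CPM in the stimulated rats, in replicate order. The groups did not overlap, and the log2 fold change was -1.60 ± 0.26 (SE, adjusted p = 0.0023, edgeR). Its cluster mate miR-497-5p was at 46.7, 50.5 and 39.6 CPM in the MCAO rats against 14.9, 11.2 and 8.94 CPM in the stimulated rats. This was the largest decrease among the 8 members, with a log2 fold change of -1.96 ± 0.24 (SE, adjusted p = 0.00077, edgeR), a 3.89-fold lower level.

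miR-322-5p, the rodent counterpart of human miR-424, was at 19.5, 19.0 and 15.8 CPM in the MCAO rats against 7.37, 5.90 and 3.50 CPM in the stimulated rats. All stimulated rats were lower, with a log2 fold change of -1.68 ± 0.30 (SE, adjusted p = 0.0030, edgeR).

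The smallest decrease was that of miR-15b-5p, which shares its cluster with miR-16-5p. It was at 13.6, 17.7 and 12.3 CPM in the MCAO rats against 9.18, 8.26 and 3.89 CPM in the stimulated rats. The groups did not overlap, yet the adjusted p of 0.036 (log2 fold change -1.03 ± 0.34, SE, edgeR) rose to 0.072 without MCAO replicate 1, 0.13 without MCAO replicate 2, 0.056 without MCAO replicate 3 and 0.081 without MCAO + rTMS replicate 2. The other 4 members with the shared seed kept an adjusted p under 0.05 and the same direction in all 18 alternative fits.

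miR-503-5p, whose seed differs from that of the other 5p arms, was at 8.15, 7.26 and 7.64 CPM in the MCAO rats against 9.03, 8.77 and 8.36 CPM in the stimulated rats. The stimulated rats were slightly higher without overlap. Groups did not overlap for 66.8% of all tested miRNAs, and for 30.8% with the stimulated rats higher. Its log2 fold change was 0.18 ± 0.19 (SE, adjusted p = 0.45, edgeR), and it turned to -0.11 with upper-quartile factors and to -0.44 with library totals only.

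**Figure D1:**
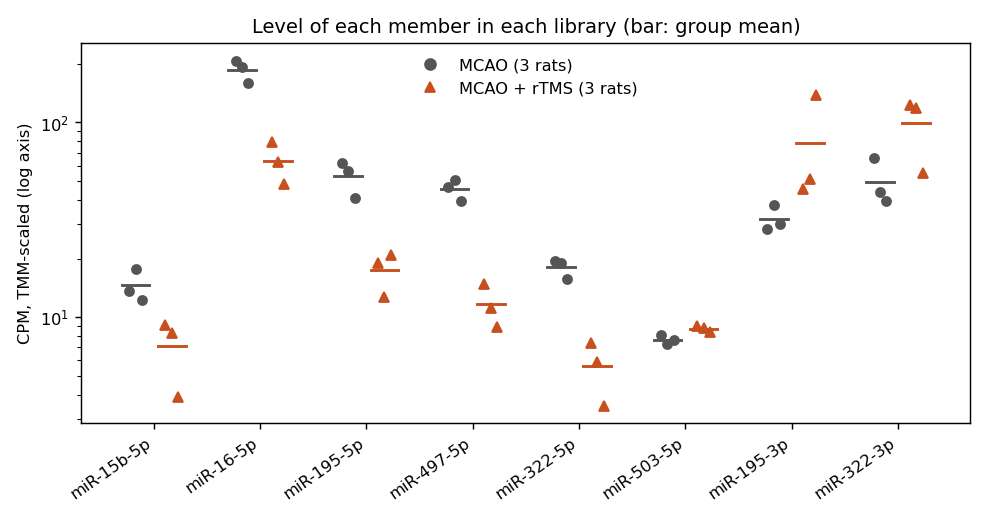
Level of each of the 8 members in CPM (TMM-scaled, log axis), with 3 MCAO rats as grey circles, 3 MCAO + rTMS rats as orange triangles and a bar at each group mean. The 5 members on the left, with the seed AGCAGCA, lie lower in every stimulated rat, miR-503-5p lies between 7.26 and 9.03 CPM throughout, and the 3p arms on the right lie higher, with an overlap for miR-322-3p.

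The 3p arms of 2 of these hairpins went the other way. miR-195-3p was at 28.3, 37.9 and 30.1 CPM in the MCAO rats against 45.4, 51.2 and 138 CPM in the stimulated rats. All stimulated rats were higher, and MCAO + rTMS replicate 3 stood far above the others. The log2 fold change was 1.28 ± 0.43 (SE, adjusted p = 0.037, edgeR), and without MCAO + rTMS replicate 3 it was 0.61 (adjusted p = 0.022, edgeR). The call was lost without MCAO replicate 1 (adjusted p = 0.11), without MCAO replicate 2 (0.090) and without MCAO replicate 3 (0.093), each in edgeR.

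miR-322-3p was at 66.0, 43.9 and 39.5 CPM in the MCAO rats against 123, 119 and 55.0 CPM in the stimulated rats. Here the groups overlapped, since MCAO replicate 1 lay above MCAO + rTMS replicate 3. The log2 fold change was 0.99 ± 0.35 (SE, adjusted p = 0.044, edgeR). The adjusted p was 0.15 without MCAO replicate 2 or without MCAO replicate 3, 0.12 without MCAO + rTMS replicate 1 and 0.14 without MCAO + rTMS replicate 2. With library totals only, both 3p arms kept their direction but were not called, with log2 fold changes of 0.58 for miR-195-3p and 0.42 for miR-322-3p. Less the median of all miRNAs, the log2 fold changes were 1.49 (TMM) and 1.39 (library totals) for miR-195-3p, 1.20 and 1.22 for miR-322-3p, and -1.35 with both for miR-16-5p. A change of scaling shifts that median along with each miRNA, so the likeness of these values follows from how they were made and is no support for the lost calls.

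The hairpins are shown here with both arms in capitals, so that the arms which moved apart can be seen on 1 precursor (RefSeq, GRCr8, 5′ to 3′).
mir-195: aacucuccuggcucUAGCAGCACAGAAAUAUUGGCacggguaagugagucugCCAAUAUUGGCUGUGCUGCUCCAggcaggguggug
mir-322: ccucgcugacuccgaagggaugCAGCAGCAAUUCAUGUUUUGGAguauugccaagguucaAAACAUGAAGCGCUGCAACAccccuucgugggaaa
The ratio of the arms within a library does not depend on how libraries are scaled. In the MCAO group there were 2.19, 1.5 and 1.36 reads of miR-195-5p for each read of miR-195-3p, and in the MCAO + rTMS group 0.421, 0.247 and 0.152. The 5p arm was the more frequent arm in every rat of the MCAO group, and the 3p arm in every stimulated rat. As a share of both arms, miR-195-5p took 68.7% of 1420 reads (95% Wilson interval 66.2% to 71.0%) in MCAO replicate 1 and 57.7% of 1137 reads (54.8% to 60.5%) in MCAO replicate 3, the highest and the lowest of that group. In the MCAO + rTMS group the highest was 29.6% of 858 reads (26.6% to 32.7%) in replicate 1 and the lowest 13.2% of 1636 reads (11.6% to 14.9%) in replicate 3. These intervals cover counting error only, and the gap between the groups was wider than the intervals and the spread between rats. The mean log2 ratio fell from 0.72 ± 0.36 (SD, n = 3) to -1.99 ± 0.73 (SD, n = 3), a difference of -2.71. In an exact two-sided permutation test of 3 rats against 3 this gave p = 0.1, the smallest value such a test can give, and p = 0.27 after Benjamini-Hochberg adjustment over the 8 ratios compared.

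For miR-322 the 3p arm was already the more frequent one after MCAO alone. The ratio of miR-322-5p to miR-322-3p was 0.295, 0.432 and 0.400 in the MCAO rats against 0.0600, 0.0497 and 0.0636 in the stimulated rats. Each stimulated rat was below each rat of the MCAO group, and the mean log2 ratio differed by -2.69 (exact permutation p = 0.1, adjusted p = 0.27, n = 3 each). The hairpin mir-15b did not show this. Its ratio of miR-15b-5p to miR-15b-3p was 3.40, 4.06 and 3.08 in the MCAO rats against 2.30, 4.67 and 4.0 in the stimulated rats, so that the groups overlapped. The difference of the mean log2 ratio was 0.0062 (exact permutation p = 1.0), with as few as 10 reads of the 3p arm in MCAO + rTMS replicate 3. The opposite arm of miR-16-5p, miR-16-3p, was listed at 0 in all libraries but MCAO replicate 2, where it had 26 reads, and miR-497-3p was not listed.

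Arms that moved apart were not limited to this family. Among 138 hairpins with both arms tested, the 5p arm was lower and the 3p arm higher, each with an adjusted p under 0.05 in edgeR, in 14 (10.1%), the reverse held in 7 (5.07%), and both arms were called in 1 direction in 24 (17.4%). Ordered by the log2 fold change of the 5p arm minus that of the 3p arm, from the lowest, mir-195 ranked 7 (-2.88) and mir-322 ranked 11 (-2.67) of the 138.

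**Figure D2:**
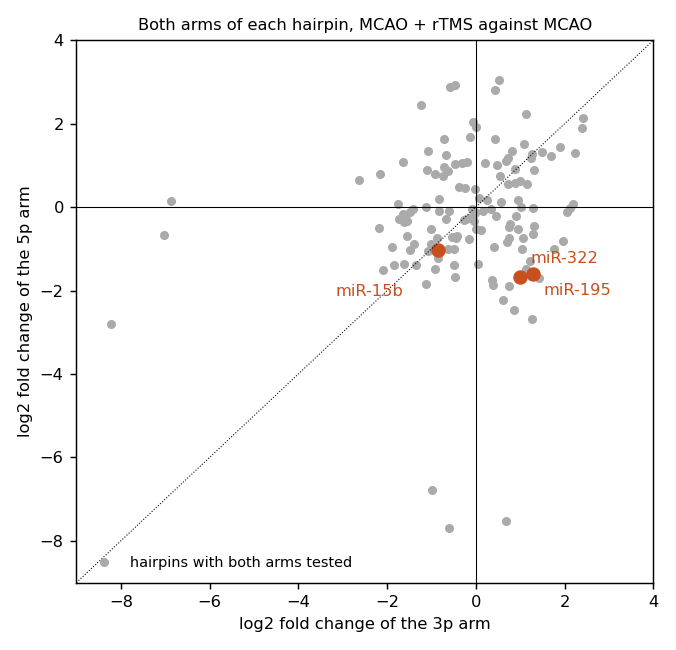
Log2 fold change (MCAO + rTMS against MCAO) of the 5p arm against that of the 3p arm for 138 hairpins, with a dotted line where both are equal. miR-195 and miR-322, in orange, lie in the lower right, where the 5p arm fell and the 3p arm was higher, while miR-15b lies near the line. Values beyond -6 belong to arms listed at 0 in 1 group and depend on the prior count of the fit.

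Ratios between 5p arms of cluster mates overlapped between the groups, with 1 exception. The ratio of miR-195-5p to miR-497-5p was 1.33, 1.12 and 1.04 in the MCAO rats against 1.28, 1.13 and 2.35 in the stimulated rats, and that of miR-15b-5p to miR-16-5p was 0.0656, 0.0925 and 0.0771 against 0.116, 0.132 and 0.0802. Both pairs of groups overlapped, and the differences of the mean log2 ratios were 0.38 (exact permutation p = 0.4) and 0.46 (exact permutation p = 0.2). Reads of miR-16-5p may also come from another copy of mir-16, which lies with mir-15a. The ratio of miR-15b-5p to miR-16-5p may therefore not be that of their shared cluster alone. The exception was the ratio of miR-322-5p to miR-503-5p, at 2.39, 2.61 and 2.07 in the MCAO rats against 0.817, 0.673 and 0.419 in the stimulated rats. miR-322-5p had more reads than miR-503-5p in every rat of the MCAO group and fewer in every stimulated rat, a log2 difference of -1.94 (exact permutation p = 0.1, adjusted p = 0.27).

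Ratios between clusters overlapped between the groups. miR-322-5p stood at 0.0938, 0.0990 and 0.0987 reads for each read of miR-16-5p in the MCAO rats against 0.0931, 0.0941 and 0.0721 in the stimulated rats. The log2 difference was -0.18 (exact permutation p = 0.2). The ratio of miR-195-5p to miR-16-5p, the pair with near-identical sequence, was 0.299, 0.296 and 0.257 against 0.241, 0.202 and 0.433, a log2 difference of -0.036 (exact permutation p = 0.9). With 3 rats in each group these tests cannot show that the ratios were equal.

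**Figure D3:**
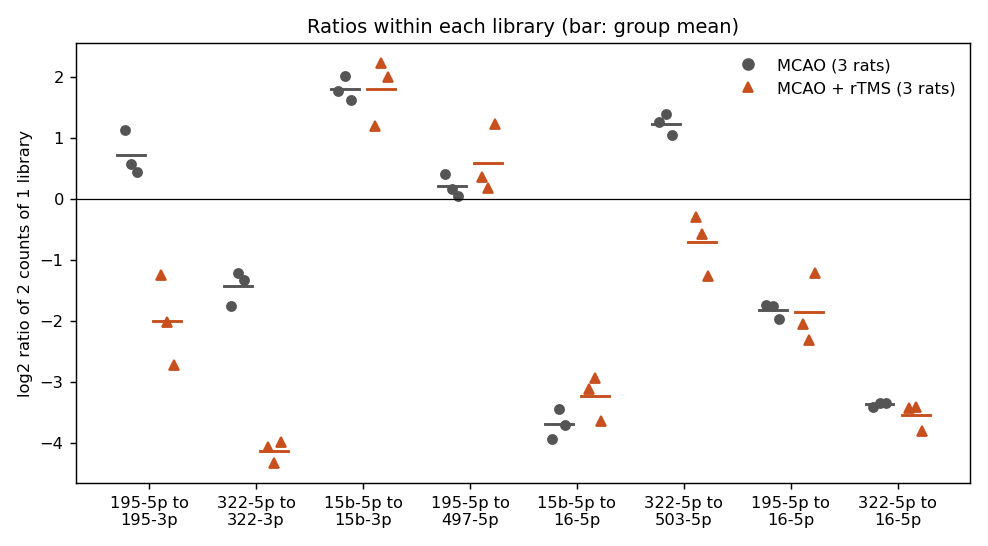
Log2 ratio of 2 counts of the same library for 8 pairs of miRNAs, with 3 MCAO rats as grey circles, 3 MCAO + rTMS rats as orange triangles and a bar at each group mean. The groups are apart for miR-195-5p to miR-195-3p, miR-322-5p to miR-322-3p and miR-322-5p to miR-503-5p, and overlap in the other 5.

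The further miRNAs of these clusters were read beside the members. Of 16 on the list, 11 were in the table and 10 were tested. Of these, 3 were higher, 1 was lower and 6 were not called, with a median log2 fold change of 0.19. The shares over all tested miRNAs were 27.2% higher and 28.1% lower. The lower one was miR-15a-5p, the family member whose hairpin lies with another copy of mir-16. It had few reads, with 5.48, 6.02 and 4.57 CPM in the MCAO rats against 1.65, 0.927 and 1.07 CPM in the stimulated rats, and a log2 fold change of -2.12 ± 0.35 (SE, adjusted p = 0.0022, edgeR). The 3 higher ones all came from the cluster of miR-322. miR-351-5p, the most abundant of them, was at 234, 292 and 293 CPM in the MCAO rats against 441, 631 and 455 CPM in the stimulated rats (log2 fold change 0.90, adjusted p = 0.011, edgeR). miR-351-3p (1.31) and miR-450b-3p (0.78) rose as well, with adjusted p of 0.028 and 0.036 in edgeR. Not called were miR-15b-3p (-0.86), miR-503-3p (0.26), miR-542-5p (0.12), miR-542-3p (0.57), miR-450a-5p (-0.16) and miR-450b-5p (-0.40), as log2 fold changes. With library totals only, none of these 3 increases was called, and miR-503-3p, miR-542-5p and miR-542-3p changed sign. By that scaling 3 of the 10 were lower, against 46.0% of all tested miRNAs. With upper-quartile factors only miR-351-5p of the 3 was called, and miR-503-3p and miR-542-5p changed sign. In this cluster miR-322-5p was, with TMM factors, the only one of 11 listed arms called lower.

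**Figure D4:**
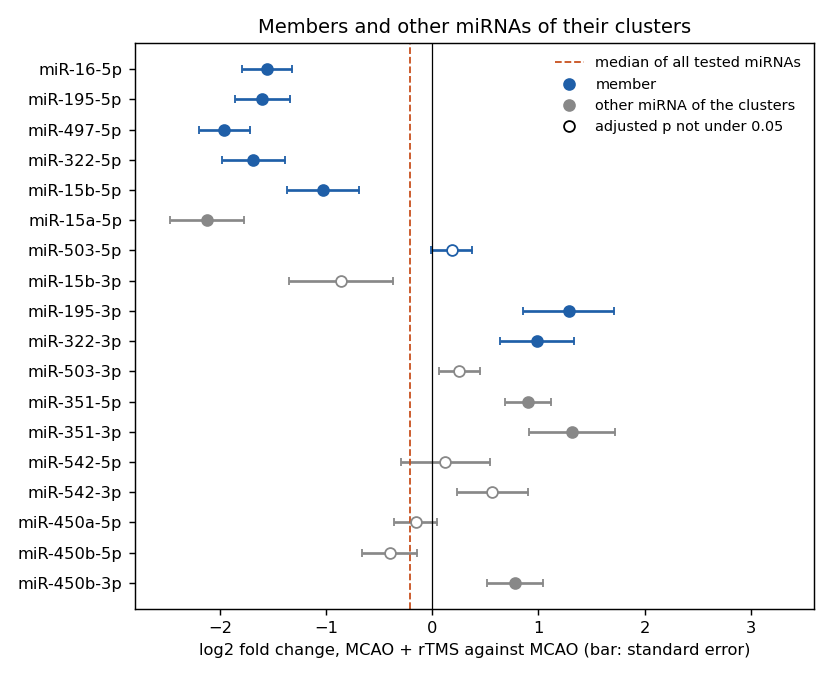
Log2 fold change of the 8 members (blue) and 10 other tested miRNAs of their clusters (grey), MCAO + rTMS against MCAO, with standard errors, open circles where the adjusted p was not under 0.05 and a dashed line at the median of all tested miRNAs (-0.21). The 5 members with the seed AGCAGCA and miR-15a-5p lie left of the line between -1.03 and -2.12, and the 3p arms of miR-195 and miR-322 and both arms of miR-351 lie between 0.90 and 1.31.

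The counts of this cluster had an unusual form. Of the 11 listed miRNAs from the hairpins of miR-322, miR-503, miR-351, miR-542 and miR-450, 8 had even counts in all 6 libraries, among them miR-322-5p, miR-322-3p and miR-503-5p, and 2 had counts divisible by 3 in all 6. Over the whole table this was so for 7.27% and 1.0% of the 399 miRNAs with counts above 0 in every library. After the counts of such miRNAs were divided by 2 or 3, an alternative chosen after the data had been seen, miR-322-5p stayed lower (adjusted p = 0.0048, edgeR) and miR-322-3p missed the threshold (log2 fold change 1.0, adjusted p = 0.052, edgeR). Levels of this cluster can be compared with those of the other clusters only to within that factor.

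The order of the levels changed between the groups. In the MCAO group miR-16-5p came first (186 ± 24.3 CPM, SD, n = 3), followed by miR-195-5p (53.3 ± 10.9), miR-322-3p (49.8 ± 14.2) and miR-497-5p (45.6 ± 5.54), which overlapped each other, and then miR-195-3p (32.1 ± 5.07). miR-322-5p (18.1 ± 2.01) and miR-15b-5p (14.6 ± 2.82) also overlapped, and miR-503-5p (7.68 ± 0.45) was the lowest. In the MCAO + rTMS group the 3p arms miR-322-3p (98.8 ± 38.0) and miR-195-3p (78.2 ± 51.9) came first, overlapping with each other and with miR-16-5p (63.5 ± 15.4). The place of miR-195-3p rested on MCAO + rTMS replicate 3, without which its mean was 48.3 CPM and that of miR-16-5p 71.0 CPM. After these came miR-195-5p (17.6 ± 4.38) and miR-497-5p (11.7 ± 3.0), which overlapped, and miR-503-5p (8.72 ± 0.34), miR-15b-5p (7.11 ± 2.83) and miR-322-5p (5.59 ± 1.95). miR-503-5p and miR-15b-5p each overlapped with miR-497-5p and with each other, and miR-15b-5p overlapped with miR-322-5p. The counts of miR-322-3p, miR-322-5p and miR-503-5p were even in every library. Their places among the other members, the first place of miR-322-3p included, therefore hold only to within a factor of 2. Read counts of different miRNAs also depend on how well each sequence is ligated to the adapters, so this order is that of the reads.

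Together the 6 members of the 5p arm held 403 ± 22.6 CPM of the unscaled total (SD, n = 3) in the MCAO rats, against 93.3 ± 27.1 (SD, n = 3) after stimulation. On the TMM-scaled totals used for the other levels the sums were 326 ± 43.3 CPM and 114 ± 22.7 CPM (SD, n = 3 each), and the log2 change was -1.51 in place of -2.11. miR-16-5p held 57.3% ± 1.18 of their sum in the first and 55.3% ± 3.28 in the second (SD, n = 3 each). The share of miR-503-5p was 2.39% ± 0.337 and 7.80% ± 1.20 (SD, n = 3 each), and that of miR-497-5p was 14.0% ± 0.867 and 10.2% ± 0.623 (SD, n = 3 each).

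The family was set beside other seeds. Of the 452 tested miRNAs, 414 had a RefSeq sequence, and 12 seeds were shared by 3 or more of them. Every tested miRNA was lower with an adjusted p under 0.05 in edgeR for 3 of these 12, which were AAAGUGC with miR-17-5p, miR-20a-5p, miR-93-5p and miR-106b-5p (median log2 fold change -2.12), AGCAGCA with the 5 members (-1.60) and AGCACCA with 3 miRNAs of the miR-29 family (-1.40). For 1 seed, GGAAUGU of miR-1 and miR-206, every miRNA was higher (2.32).

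Among 14 other miRNAs known to act on the cell cycle or on apoptosis, 7 were lower, 1 was higher and 6 were not called by edgeR. Of all tested miRNAs, 28.1% were lower and 27.2% higher. Of the 7 lower ones, 4 were the miRNAs with the seed AAAGUGC named above. The lowest was miR-449a-5p, a relative of miR-34, which was listed at 0 in all 3 stimulated rats and lay between 1.34 and 1.69 CPM in the MCAO group. The next was miR-106b-5p, a repressor of cell cycle inhibitors, with a log2 fold change of -2.69. At the other end was miR-222-3p, which acts on the inhibitor p27, with a log2 fold change of 0.82, while its cluster mate miR-221-3p was lower (-0.82). Under both other scalings (upper-quartile factors or library totals), 11 of the 14 were lower and miR-222-3p was not called. Of all tested miRNAs, 38.1% were lower with upper-quartile factors and 46.0% with library totals.

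The 5 miRNAs outside the 8 members whose level followed miR-16-5p most closely over the 6 libraries were miR-384-5p, miR-582-5p, miR-7a-1-3p, miR-15a-5p and miR-29b-3p. Their root mean square differences from it, on log2(CPM + 1) centred over the libraries, were 0.11, 0.11, 0.13, 0.16 and 0.17, with Pearson's r from 0.979 to 0.992, as a description over 6 libraries that share the group difference. Adding 1 shrinks the change of rare miRNAs, and the fitted log2 fold changes of the 5 were -1.49, -1.86, -1.55, -2.12 and -1.48, in the same order, beside -1.55 for miR-16-5p. Within the family the difference on that scale was 0.082 for miR-322-5p and 0.18 for miR-497-5p, and it was 0.33 for miR-195-5p and 0.35 for miR-15b-5p.

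Base composition moved with the fold changes. Over the 414 miRNAs, Spearman's rho between GC content and log2 fold change was 0.29, as a description across miRNAs of the same 6 libraries. The GC content of the 5 members with the shared seed lay between 40.9% and 50%. In the 180 tested miRNAs with a GC content from 40% to 50% the median log2 fold change was -0.26, and 27.2% were lower and 24.4% higher. miR-503-5p (56.5%) and miR-195-3p (52.2%) lay above that range, where the median was 0.16, and miR-322-3p (45%) within it. The part of base composition in the fold changes of the members was not tested.

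The tissue carried neuronal miRNAs, with miR-128-3p first of all miRNAs in both groups. Markers of other cells went in both directions. Of 6 leukocyte and microglia miRNAs, 5 were lower in the MCAO + rTMS group, and their summed level lay between 1134 and 1252 CPM in the MCAO rats and between 605 and 813 CPM in the stimulated rats. Of the endothelial miRNAs, miR-126a-5p was lower (log2 fold change -1.22) and miR-126a-3p was not called (-0.84). Of 4 red blood cell miRNAs, which bear on miR-16-5p, 2 were listed. miR-451-5p was lower, at 22.2, 60.6 and 11.8 CPM against 9.93, 10.1 and 10.9 CPM, and miR-486 was higher, at 140, 241 and 129 CPM against 502.7, 555 and 626 CPM. Smooth muscle miR-143-3p (1.07) and oligodendrocyte miR-219a-2-3p (1.22) were higher, as log2 fold changes, while miR-145-5p (-0.079) and miR-338-3p (-0.73) were not called. Of 4 neuronal miRNAs, miR-138-5p was lower (-1.65), miR-128-3p was higher (0.69), and miR-124-3p (-0.49) and miR-9a-5p (-0.16) were not called. With library totals only, miR-128-3p, miR-143-3p and miR-219a-2-3p were not called, and with upper-quartile factors miR-128-3p and miR-143-3p were not. Under both scalings miR-486 stayed higher, and all 6 leukocyte and microglia miRNAs and both endothelial miRNAs were lower. The share of all tested miRNAs called lower was then 46.0% with library totals and 38.1% with upper-quartile factors. In bulk tissue, fewer cells of a type and less RNA in each cell cannot be told apart, and the part of these cells in the fold changes of the members was not tested.

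**Figure D5:**
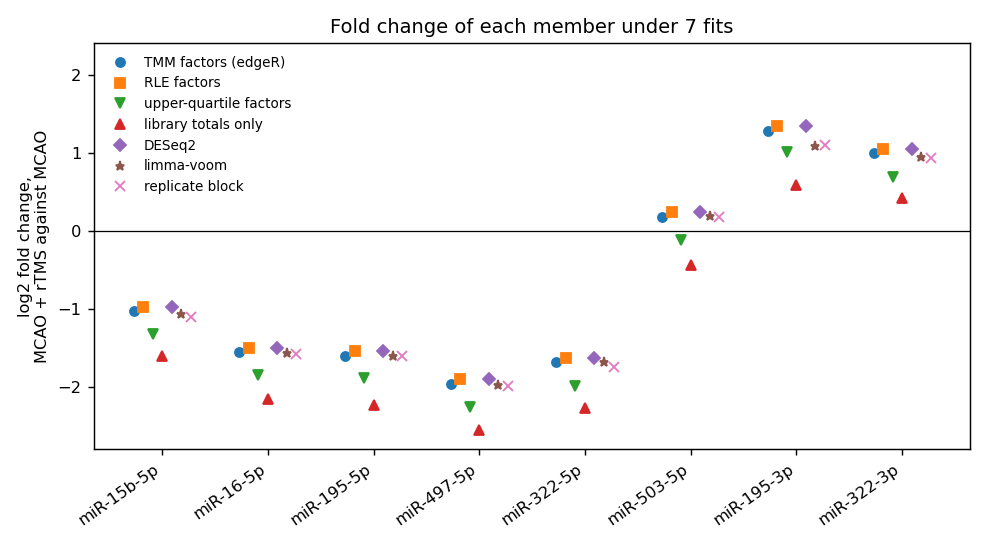
Log2 fold change of each member, MCAO + rTMS against MCAO, in 7 fits marked by colour and symbol. All fits lie below 0 for the 5 members with the seed AGCAGCA and above 0 for miR-195-3p and miR-322-3p, library totals only give the lowest value of each member, and miR-503-5p changes sign with upper-quartile factors (-0.11) and library totals only (-0.44).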

How the data were processed

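The authors deposited read counts of 493 mature miRNAs in 6 libraries, without normalization, and a selection of 73 of them with equal counts. Libraries were made with a small RNA kit and sequenced on an Illumina HiSeq instrument. The submitters' processing notes name BWA, DESeq2, bcl2fastq and rn6 without their roles, and the miRNA database and the rule for reads that match several loci are not given in the sources used here. Of the 2958 deposited counts, 286 were 0 and none lay from 1 to 9, so that a rare miRNA can be listed at 0.

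Counts were fitted in edgeR 4.0.16 (R 4.3.3) after filterByExpr, with TMM factors, no covariate and a threshold of an adjusted p under 0.05. The standard error is the log2 fold change divided by the square root of F. Ratios were tested with scipy 1.17.1. The code was tested on simulated data. The alternatives used upper-quartile or RLE factors, unscaled library totals, scaling without the 10 most abundant miRNAs or without the members, DESeq2 1.42.0, limma-voom 3.58.1, other filters, each 0 set to 9, counts divided by a common factor, a block for the replicate number, and fits without each library. Between 10492610 and 15411620 counts per library, precision is lowest for miRNAs near 10 counts. The sources name no molecular identifiers, so reads are not independent molecules. The members, the lists and the rule were chosen with earlier results of these data known. Named were the 8 members, listed miRNAs of their clusters, the extremes of a list of cell cycle or apoptosis miRNAs, markers, and the 5 miRNAs most like the most abundant member. Others were chosen after their values were seen. RefSeq sequences (GRCr8) matched 451 of the 493 names.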

Additional observations from a re-analysis of the deposited data

How the results depend on the processing

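The decreases of miR-16-5p, miR-195-5p, miR-497-5p and miR-322-5p were called in the same direction in all 18 alternatives, with log2 fold changes from -2.15 to -1.36, from -2.23 to -1.38, from -2.56 to -1.77 and from -2.27 to -1.41. The other values depended on the setting, and the cause was not tested except where named. miR-15b-5p was -0.94 and not called when scaling left out the 10 most abundant miRNAs. The increases were not called with upper-quartile factors (1.01 for miR-195-3p and 0.69 for miR-322-3p), library totals only (0.58 and 0.42) and limma-voom (1.09 and 0.94), nor was miR-322-3p after division by common factors (1.0). miR-503-5p reversed to -0.11 with upper-quartile factors and -0.44 with library totals only. These scalings moved the median of all miRNAs from -0.21 to -0.50 and -0.80, and the called miRNAs that were higher from 49.2% to 33.1% and 20.9%. The share of all counts held by the 5p members had a log2 change of -2.11, and of -1.51 with TMM-scaled totals.

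With 1 library left out, the fold changes ranged from -1.26 to -0.71 for miR-15b-5p, from 0.61 to 1.56 for miR-195-3p and from 0.80 to 1.31 for miR-322-3p, and 4 to 7 members were called. It was 4 without MCAO replicate 2 and without MCAO replicate 3, where calls over all miRNAs also fell, to 179 of 467 and 210 of 456 from 250 of 452. The log2 ratio difference of miR-15b-5p to miR-15b-3p, 0.0062, was -0.033 with 1 added to both counts and from -0.20 to 0.31 with 1 library left out, and that of miR-195-5p to miR-16-5p was from -0.36 to 0.19. With the replicate number as a block, miR-195-3p was not called (1.09, adjusted p = 0.090 in edgeR), no other member's call changed, and 180 in place of 250 miRNAs were called. The numbers name different rats. Deviations of same-numbered libraries correlated at 0.20, -0.12 and -0.11, and those of the other pairs between -0.28 and 0.30. With 3 libraries in each group this cannot show whether same-numbered libraries were handled together. Few reads limit miR-15b-3p, miR-15a-5p and miR-16-3p most.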
